A study of Mus musculus with 9 samples.

Results

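Genes that mark the main neurons of the cerebellar cortex were followed across the whole-brain transcriptomes of young and old mice. They were chosen by name, as 4 genes of Purkinje cells (Pcp2, Car8, Ppp1r17, Slc1a6) and 6 genes of granule cells (Cbln1, Cbln3, Zic1, Zic2, Fat2, Neurod1). They are 10 of the 49315 genes in the count table, and all 10 passed the filter on low counts that left 18492 genes for testing. PolyA-selected RNA was sequenced from the individually collected brains of male wild-type C57BL/6J mice, which shared one strain and received no treatment. The young group held 5 mice, labelled 3 months old (3 or 4 months in the methods of the study), and the old group 4 mice of 33 months, numbered 1, 3, 4 and 5. Each library came from 1 mouse, so the spread between libraries includes differences between mice. The libraries held between 14229259 and 21150439 counts on genes, and the 10 genes took between 231 and 4790 counts each per library.

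Purkinje cells are the large inhibitory neurons that carry the output of the cerebellar cortex, and granule cells are the small excitatory neurons that contact Purkinje dendrites through their parallel fibres. The 2 cell types meet at a synapse that depends on cerebellin, a protein that granule cells secrete and that bridges the parallel fibre and the Purkinje dendrite. Levels of these genes in whole brain therefore carry 2 things together, the share of the RNA that came from cerebellum and the expression in each cell. In bulk tissue, fewer cells of a type, less cerebellar tissue in the extract and less RNA per cell cannot be told apart.

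The start regions of 3 members, 2 of Purkinje and 1 of granule cells, are shown as a description of the genes. Whether these sequences bear on the levels of the members in these mice was not tested. RefSeq start windows (GRCm38.p6) were matched for 6 of the 10 members, and 2 sequences of 6 letters were searched on both strands in the 250 bases before each start. The first was AGGTCA, which reads on the other strand as TGACCT. It is the core site of nuclear receptors such as RORalpha, which Purkinje cells need, and stood in 14.02% of 32851 such windows. The second was CAGATG, which reads on the other strand as CATCTG. It is an E box of the kind bound by NEUROD1 and related factors, and stood in 14.4% of them. Each stretch below is the longest run of the window without an annotated exon of GENCODE M21, written 5′ to 3′ on the gene's own strand, with any match in capitals.
Pcp2, chr8:3625607-3625778, minus strand, bases -231 to -60: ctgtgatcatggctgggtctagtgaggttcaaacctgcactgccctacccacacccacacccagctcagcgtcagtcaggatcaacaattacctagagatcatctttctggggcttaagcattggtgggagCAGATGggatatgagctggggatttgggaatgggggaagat
Slc1a6, chr10:78780246-78780495, plus strand, bases -250 to -1: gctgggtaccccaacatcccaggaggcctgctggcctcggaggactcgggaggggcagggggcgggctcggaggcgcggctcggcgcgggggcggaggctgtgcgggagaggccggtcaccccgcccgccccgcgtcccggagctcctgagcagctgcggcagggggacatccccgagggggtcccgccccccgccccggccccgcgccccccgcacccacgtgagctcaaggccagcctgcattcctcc
Cbln3, chr14:55884393-55884506, minus strand, bases -250 to -137: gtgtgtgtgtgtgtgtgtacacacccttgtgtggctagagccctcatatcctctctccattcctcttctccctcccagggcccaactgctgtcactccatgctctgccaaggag
Pcp2 had 4 start windows, of which the one furthest upstream is shown. It held CAGATG at -100 and, outside the stretch shown, AGGTCA at -12. Of the other Pcp2 windows 1 overlapped the window shown and held the same copies of both sequences, at -175 and -87. Of those inside the annotated gene, 1 held AGGTCA alone and 1 neither. The Slc1a6 and Cbln3 windows held neither sequence, nor did those of Zic1 and Neurod1. This says only that these letters are not in these windows. The Fat2 window held TGACCT at -31, but it lies inside the annotated Fat2 gene and not before its annotated start. The G and C content of the whole windows shown in part was 52.8% for Pcp2, 78.8% for Slc1a6 and 57.6% for Cbln3, beside a median of 52.4% over all windows.

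The 10 genes lay between the 74.5th and the 96.7th percentile of the genes tested in young whole brain, by level per exon length. Scaled by the library size (CPM, each library's counts brought to the same total after TMM normalization) and by the annotated exon length, the level in young brains was highest for Car8 (58.1 ± 9.18 CPM per kb, SD, n = 5) and Cbln1 (49.7 ± 4.03), followed by Zic1 (40.2 ± 3.83), Cbln3 (36.9 ± 4.54), Zic2 (24.6 ± 1.63), Neurod1 (24.4 ± 3.61), Pcp2 (23.2 ± 4.0), Ppp1r17 (17.2 ± 2.70), Slc1a6 (16.9 ± 3.13) and Fat2 (10.4 ± 1.46). Neighbours in this order whose means ± 1 SD overlapped were Car8 and Cbln1, Zic1 and Cbln3, and the run from Zic2 to Slc1a6. The order rests on exon lengths from the annotation, which may differ from those of the transcripts used in brain.

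With age, 1 member was called lower and none higher. Car8 fell by 40.0% in old mice, while the fitted values of the other 9 did not pass the test (edgeR quasi-likelihood test over all 18492 genes, Benjamini-Hochberg adjusted p under 0.05, used throughout). Of all genes tested, 11.0% passed in either direction, 4.83% lower and 6.20% higher, so 1 of 10 lies near the background share. The log2 fold change, old over young, was below 0 for 9 of the 10 members, against 50.0% of all genes, with a median of -0.41 over the 4 Purkinje cell genes and -0.25 over the 6 granule cell genes, against -9.2e-05 over all genes. At an unadjusted p under 0.05 stood 5 members, all lower (Car8, Fat2, Ppp1r17, Cbln1 and Zic1), against 26.0% of all genes. The CPM of old and young libraries overlapped in all 10 members, while 6.08% of all genes were lower in every old brain than in every young one. Leaving out 1 mouse moved the number called to 3 in each of 3 cases: Car8, Ppp1r17 and Fat2 without young 2 (10.2% of all genes in that fit) or without old 4 (9.17%), and Car8, Cbln1 and Fat2 without old 1 (8.39%). Other settings called 6 members with every gene that had a count kept (6.72% of all genes), 5 on the TPM scales (3.21% and 3.24%), 2 with the replicate number as a block (9.12%) and 0 with the robust prior (11.0%).

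**Figure D1:**
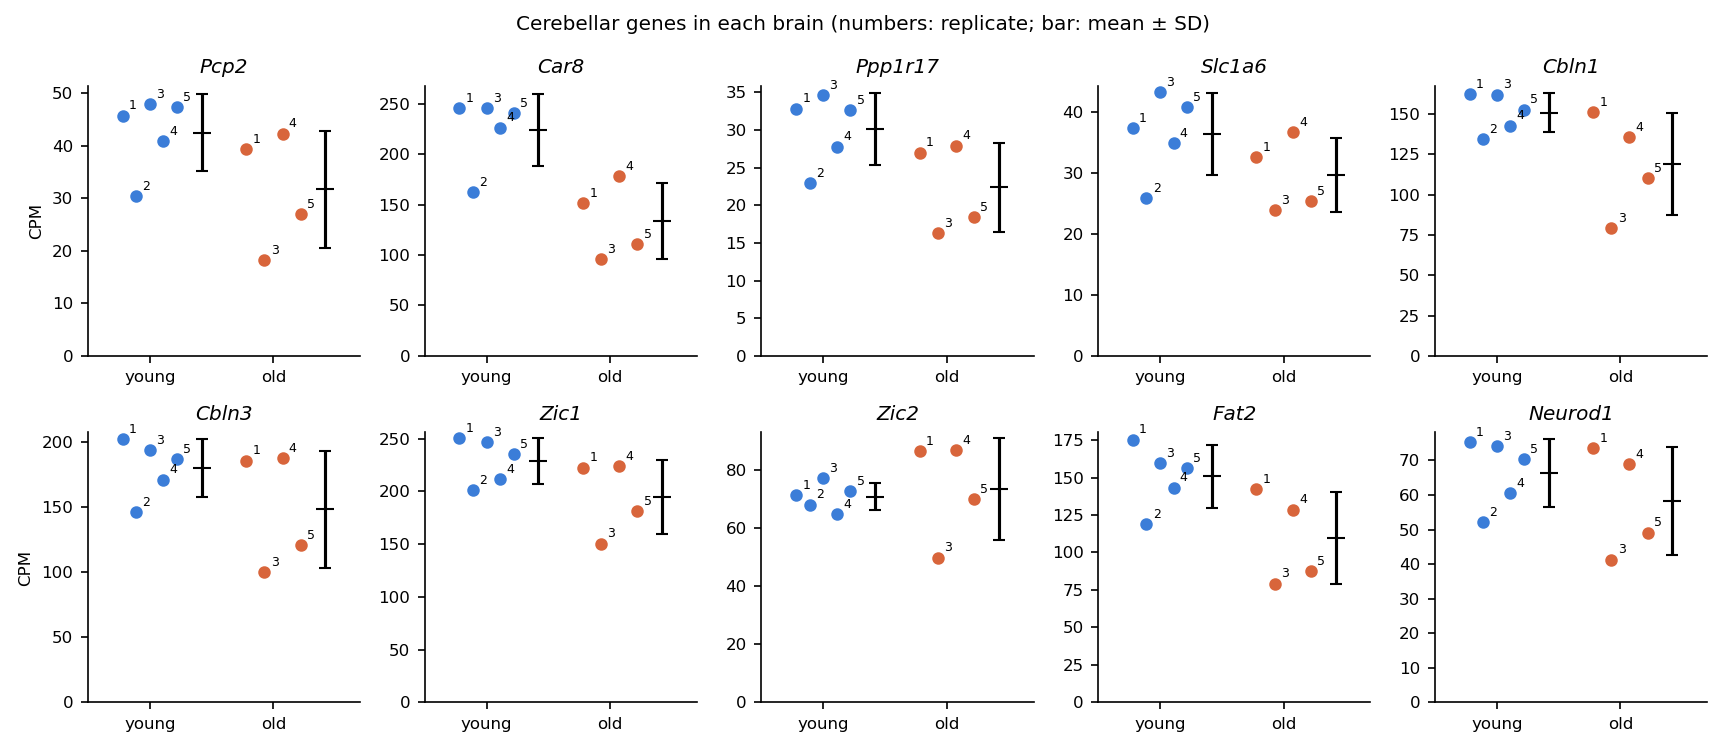
CPM of each of the 10 genes (vertical axes, from 0) in the 5 young and 4 old brains, with the replicate number beside each point and bars for the mean ± SD. Old 3 is the lowest brain in every panel, old 5 the next lowest old brain, and old 1 and old 4 both reach the lowest young brain in every panel but that of Car8.

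Car8 encodes a carbonic anhydrase relative without enzyme activity that binds the IP3 receptor of Purkinje cells (gene at chr4:8143362-8239041, minus strand, GRCm38). Its CPM in young 1 to 5 was 245, 162, 245, 226 and 241. In old 1, 3, 4 and 5 it was 151, 96.1, 178 and 111. All old brains were below 4 of the 5 young brains, and only young 2 fell among them, below old 4. The means were 224 ± 35.4 (n = 5) and 134 ± 37.5 (n = 4), with a log2 fold change of -0.74 (SE 0.16, edgeR adjusted p = 0.00899). Over 22 alternative settings Car8 stayed below 0 in 22 and was called in 20, including each of the 9 fits without 1 mouse (log2 fold change -0.90 to -0.61, adjusted p 0.00235 to 0.0292). The call was lost with edgeR's robust prior, an option added after the values were seen (adjusted p = 0.0741), and with the brainstem and hindbrain markers as a covariate (log2 fold change -0.70, adjusted p = 0.0641, with 5.43% of all genes called).

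The other 3 Purkinje cell genes had lower means in old brains without passing the test. Pcp2, also known as L7, encodes a modulator of G-protein signalling in Purkinje cells (chr8:3623371-3625545, minus strand). Its CPM was 45.7, 30.4, 48.0, 40.9 and 47.4 in young 1 to 5, and 39.4, 18.3, 42.3 and 26.9 in old 1, 3, 4 and 5. Old 1 and old 4 lay inside the young range, and old 3 and old 5 lay below every young brain. The log2 fold change was -0.40 (SE 0.19, edgeR adjusted p = 0.20). Exons of Pcp2 overlap those of Pet100 on the opposite strand over 941 bases, and Pet100 itself held 150 to 213 counts per library.

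Ppp1r17, the protein phosphatase inhibitor called G-substrate (chr6:56017497-56032689, plus strand), had 32.8, 23.0, 34.6, 27.8 and 32.6 CPM in the young and 27.0, 16.3, 27.9 and 18.4 CPM in the old brains, in the same order of mice. Its log2 fold change was -0.41 (SE 0.15, edgeR adjusted p = 0.0976). Slc1a6, the glutamate transporter EAAT4 of Purkinje dendrites (chr10:78780496-78814765, plus strand), had 37.3, 25.8, 43.3, 34.9 and 40.8 CPM in the young and 32.6, 23.9, 36.7 and 25.4 CPM in the old brains. Its log2 fold change was -0.28 (SE 0.14, edgeR adjusted p = 0.22). In both genes young 2 was the lowest young brain, and old 3 and old 5 were the only brains below it.

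Cbln1 and Cbln3, the cerebellins of granule cells, gave the same picture. Cbln1, the secreted bridge of the parallel fibre synapse (chr8:87468405-87472609, minus strand), had 163, 134, 162, 143 and 153 CPM in young 1 to 5. In old 1, 3, 4 and 5 it had 151, 79.1, 136 and 110.2 CPM. The log2 fold change was -0.34 (SE 0.13, edgeR adjusted p = 0.12). Cbln3, which assembles with Cbln1 (chr14:55878913-55884392, minus strand), had 202, 146, 194, 171 and 187 CPM in the young brains and 185, 99.9, 188 and 120.4 CPM in the old. Its log2 fold change was -0.27 (SE 0.16, edgeR adjusted p = 0.30). For Cbln3, old 1 was above 2 and old 4 above 3 of the 5 young brains, and old 3 and old 5 were below all 5.

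Of the transcription factors, Zic1 had a lower mean in old brains and Zic2 did not. Zic1 and Zic2 encode zinc finger factors of the granule cell lineage that other cells of the brain also express. Zic1 (chr9:91358058-91365810, minus strand) had 250.3, 201, 247, 211 and 236 CPM in young 1 to 5 and 223, 150.5, 224 and 181 CPM in old 1, 3, 4 and 5, with a log2 fold change of -0.23 (SE 0.10, edgeR adjusted p = 0.16). Zic2 (chr14:122475435-122479852, plus strand) had 71.4, 68.2, 77.2, 64.9 and 72.9 CPM in the young and 86.7, 49.9, 87.1 and 70.0 CPM in the old brains. Old 1 and old 4 were above every young brain for Zic2, old 3 below every young brain and old 5 among them. Its log2 fold change was 0.06 (SE 0.12, edgeR adjusted p = 0.80), and the sign turned on the TPM scale and without old 1 or old 4.

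Neurod1, a bHLH factor of granule cell differentiation that is also used in other neurons (chr2:79452521-79456751, minus strand), had 75.2, 52.2, 74.2, 60.5 and 70.3 CPM in the young and 73.6, 41.3, 69.0 and 49.1 CPM in the old brains. The log2 fold change was -0.18 (SE 0.15, edgeR adjusted p = 0.48). Its exons share 201 bases with Cerkl on the same strand, which held 43 to 81 counts per library. Fat2, a giant cadherin of parallel fibres (chr11:55250609-55336564, minus strand), had 175, 119, 160, 143 and 156 CPM in the young and 142, 79.2, 129 and 87.7 CPM in the old brains. The log2 fold change of Fat2 was -0.45 (SE 0.15, edgeR adjusted p = 0.0682), the largest in size after Car8.

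The spread of these genes between brains was wide and shared. The coefficient of variation of CPM had a median of 26.5% over the members in old brains and 14.4% in young brains, against 8.53% and 8.14% over all genes. Old 3 was the lowest of the 9 libraries in all 10 members (12.8% of all genes), and old 5 was the next lowest old library in all 10. Young 2 was the lowest young library in 9 of 10, with Zic2 as the exception (22.1% of all genes). Both old 1 and old 4 reached at least the lowest young value in 9 of 10 members, Car8 being the exception. After centring within each age, the log2 CPM of the 45 pairs of members had a Pearson r of 0.70 to 0.99 over the 9 libraries, with a median of 0.94. These points share their libraries, so the value describes these 9 brains. The median r was 0.96 for pairs of Purkinje cell genes, 0.95 for pairs of granule cell genes and 0.92 for pairs of 1 of each.

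The olfactory bulb markers stood apart in the same libraries. The 6 olfactory bulb markers (Tbx21, Doc2g, Cdhr1, Th, Scgn, Eomes) summed to 82.2 CPM in young 2 and to 23.9 to 32.4 CPM in the other young brains. In old 1, 3, 4 and 5 they summed to 49.2, 63.9, 23.2 and 166 CPM. Cdhr1, a cadherin of mitral and tufted cells, had 5.91, 31.6, 4.88, 4.49 and 4.02 CPM in young 1 to 5 and 14.9, 27.6, 3.83 and 72.1 CPM in old 1, 3, 4 and 5. The brains with low cerebellar genes, young 2, old 3 and old 5, were thus the 3 brains highest in olfactory bulb markers. Old 1 came next, above young 1, 3, 4 and 5. Its granule cell members averaged 0.07 log2 CPM above the young mean, and its Purkinje cell members lay at -0.23. None of the 6 was called (11.0% of all genes), all 6 had log2 fold changes above 0 with a median of 1.30, and 1 of them had a library with no count. Without old 5 the median was 0.39.

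The 10 brainstem and hindbrain markers showed another order. They summed to 99.0 to 168 CPM in young brains and to 20.7, 77.2, 114 and 72.8 CPM in old 1, 3, 4 and 5, so old 1 was the lowest brain here. In the same brain 9 of the 10 cerebellar members reached at least the lowest young value, and Car8 did not. Slc6a5, the glycine transporter of inhibitory brainstem neurons, had 49.4 to 80.3 CPM in young brains and 9.51 CPM in old 1. Hoxb3 and Hoxb5, which mark the caudal hindbrain, had 0 of 18742861 counts in old 1, which allows up to 0.16 CPM by counting error alone. All 10 had log2 fold changes below 0 with a median of -0.81, and 1 was called (4.83% of all genes called lower), the noradrenaline transporter Slc6a2 (-1.12, SE 0.34, edgeR adjusted p = 0.0478). The median was -0.49 without old 1 and -1.29 without old 4. The part of the regional makeup of the extracts in the age differences of the cerebellar genes was not tested beyond the fits with marker levels as a covariate.

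**Figure D2:**
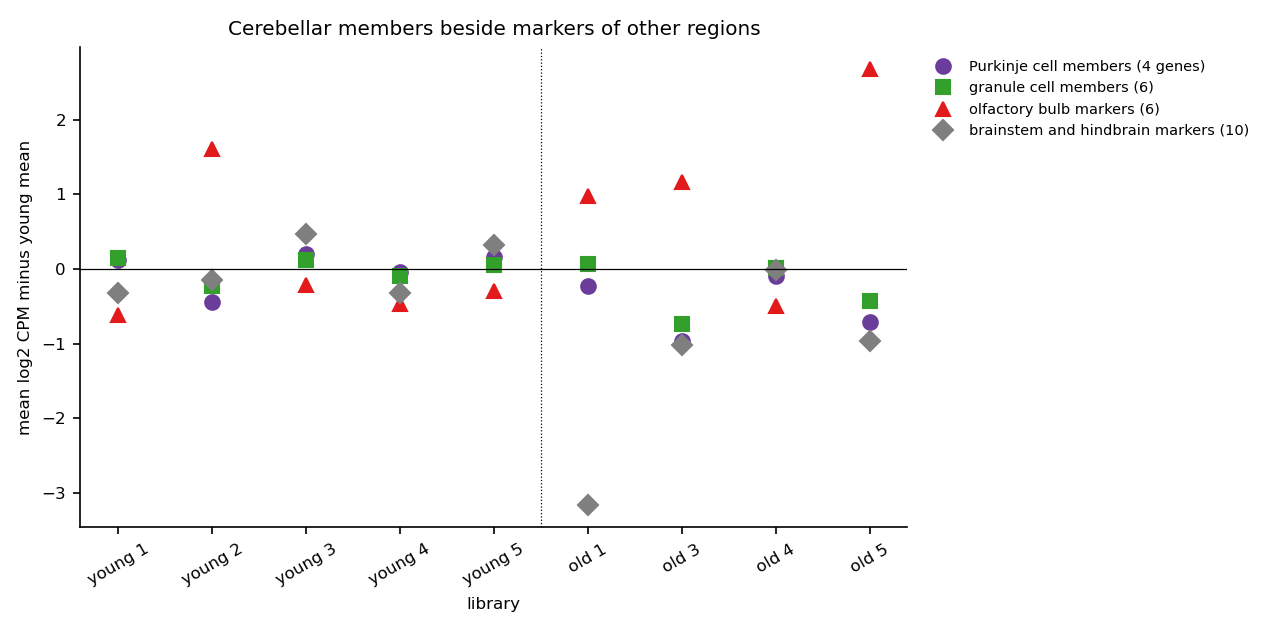
Mean log2 CPM of the 4 Purkinje cell genes, the 6 granule cell genes, the 6 olfactory bulb markers and the 10 brainstem and hindbrain markers in each library (horizontal axis), each minus its mean over the young libraries. Cerebellar genes are low in the libraries highest in olfactory bulb markers (young 2, old 3, old 5). Olfactory bulb markers are also raised in old 1 (0.97), where the granule cell genes are at 0.07 and the Purkinje cell genes at -0.23. Old 1 stands apart for the hindbrain markers at -3.17.

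Markers of the other regions and cell types that whole brain holds were read in the same fit. No thalamus (of 6), meninges (of 6) or choroid plexus (of 5) marker was called, and the median log2 fold change was -0.01 for 8 striatum markers and 0.02 for 9 cortex and hippocampus markers (Nrgn called lower, -0.22). On the 2 TPM scales the cortex and hippocampus median turned to -0.14 and -0.15. Of 6 general neuron markers 5 had log2 fold changes below 0 (median -0.06), and Tubb3 (-0.22) and Stmn2 (-0.27) were called lower. Of 6 hypothalamus markers 5 were below 0 as well, with a median of -0.21, and the 1 called, Avp, was higher (0.92). All 6 microglia markers were above 0 (median 0.32) and 2 were called higher, Tmem119 (0.53) among them. The 6 astrocyte markers had a median of 0.03, which turned to -0.13 on the TPM scales, with 4 above 0 and Gfap (1.07) called higher. Of 6 oligodendrocyte markers 4 were below 0 (median -0.05), with Mbp (0.26) and Mobp (0.33) called higher and Mog (-0.22) lower. With the robust prior the calls of Nrgn, Gfap, Avp and Slc6a2 were lost.

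The age difference was next taken at a given mean level of genes listed for granule cells. The mean log2 CPM of 14 further granule cell genes, none of them a member, was added to the model as a covariate, and 8.94% of all genes were called for age in that fit. Some of the 14, such as Slc17a7, Rbfox3 and Calb2, are shared with many neurons outside the cerebellum. The covariate is therefore not a level of granule cells alone. Of the members 2 were called. Car8 moved from -0.74 to a log2 fold change of -0.47 (SE 0.085, edgeR adjusted p = 0.00422), and Zic2 became higher in old brains, with 0.26 (SE 0.058, edgeR adjusted p = 0.0152). The other 8 lay between -0.20 and 0.08, with Fat2 at -0.20 (SE 0.060, edgeR adjusted p = 0.0582) and Cbln3 at -0.0011 (SE 0.049, edgeR adjusted p = 0.99). The median of the granule cell genes moved from -0.25 to -0.02, and that of the Purkinje cell genes from -0.41 to -0.12. With the olfactory bulb markers as the covariate, a choice made after the values were seen, 1 member (9.14% of all genes) was called, Car8 at -0.48 (SE 0.10, edgeR adjusted p = 0.00992), and the medians were -0.17 for the Purkinje and -0.09 for the granule cell genes. With the brainstem and hindbrain markers, also chosen after the values were seen, 0 members were called and the medians were -0.42 and -0.30, further from 0 than without a covariate.

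**Figure D3:**
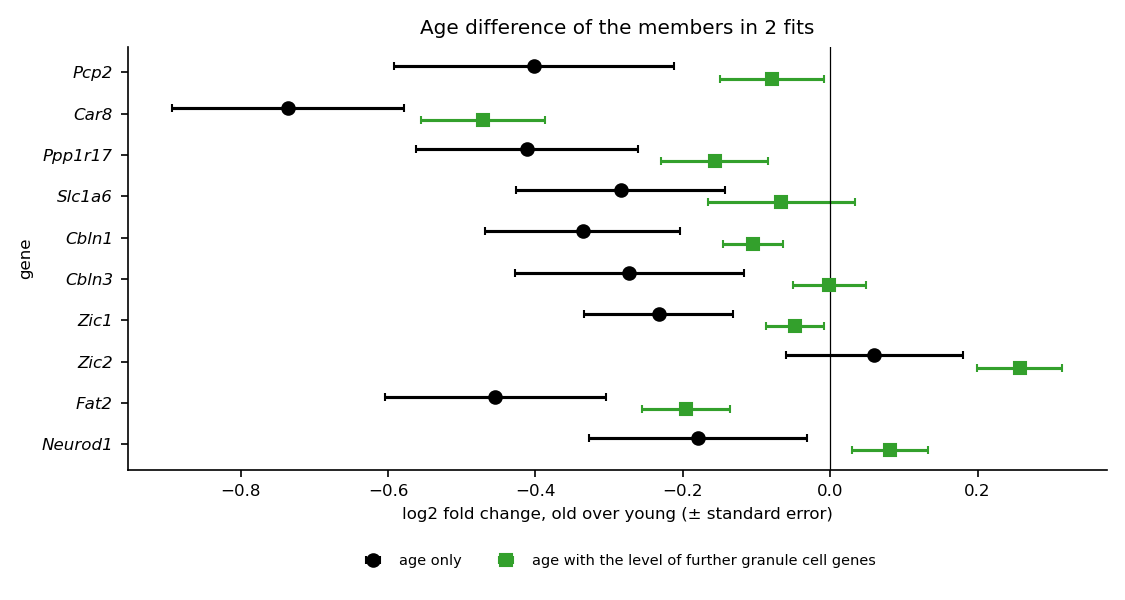
Log2 fold change, old over young, of the 10 genes with its standard error, from the fit with age alone (circles) and from the fit with age and the mean level of 14 further granule cell genes (squares). With the covariate most genes lie close to 0, while Car8 moves from -0.74 to -0.47 and Zic2 from 0.06 to 0.26.

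The same was seen in ratios within a library, which need no scaling between libraries and were formed after the values were seen, so they carry no test. Relative to the mean log2 CPM of the other granule cell members, Car8 was 0.80 ± 0.13 (SD, n = 5) in young and 0.30 ± 0.13 (n = 4) in old brains, and every old brain was below every young brain. For Fat2 the values were 0.28 ± 0.086 and 0.01 ± 0.11, again with every old brain lower. Of all genes tested 0.0757% were lower in every old brain relative to the mean of all 6 granule cell members. That scale moves with the granule cell genes themselves, and Fat2 and Zic2 were left out of the mean for their own values. Zic2 was -1.02 ± 0.13 in young and -0.67 ± 0.10 in old brains, with every old brain higher. Against the mean of all 6, 4.62% of all genes were higher in every old brain. The other 7 members overlapped between the ages.

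Counts of Car8 were also divided by counts of Cbln3. The ratio was 1.22, 1.11, 1.27, 1.32 and 1.29 in young 1 to 5, and 0.816, 0.961, 0.949 and 0.919 in old 1, 3, 4 and 5. On this ratio young 2 lay above every old brain and old 3 below every young brain. Over the other 9 members as denominators, every old ratio was below every young ratio for 6 (Ppp1r17, Slc1a6, Cbln3, Zic1, Zic2 and Neurod1). The ages overlapped for Pcp2, Cbln1 and Fat2. These 9 ratios share Car8 as the numerator, and their denominators are high and low in the same brains, so they are not separate results. The share over all genes was not computed for them. Against Pcp2 the ratio was 5.08 to 5.54 in young brains and 3.84, 5.26, 4.21 and 4.10 in old 1, 3, 4 and 5, so old 3 alone gave the overlap. Against Cbln1, young 2 (1.21) was just below old 3 and below old 4 (1.31), and against Fat2 young 2 (1.37) was below old 4 (1.38).

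**Figure D4:**
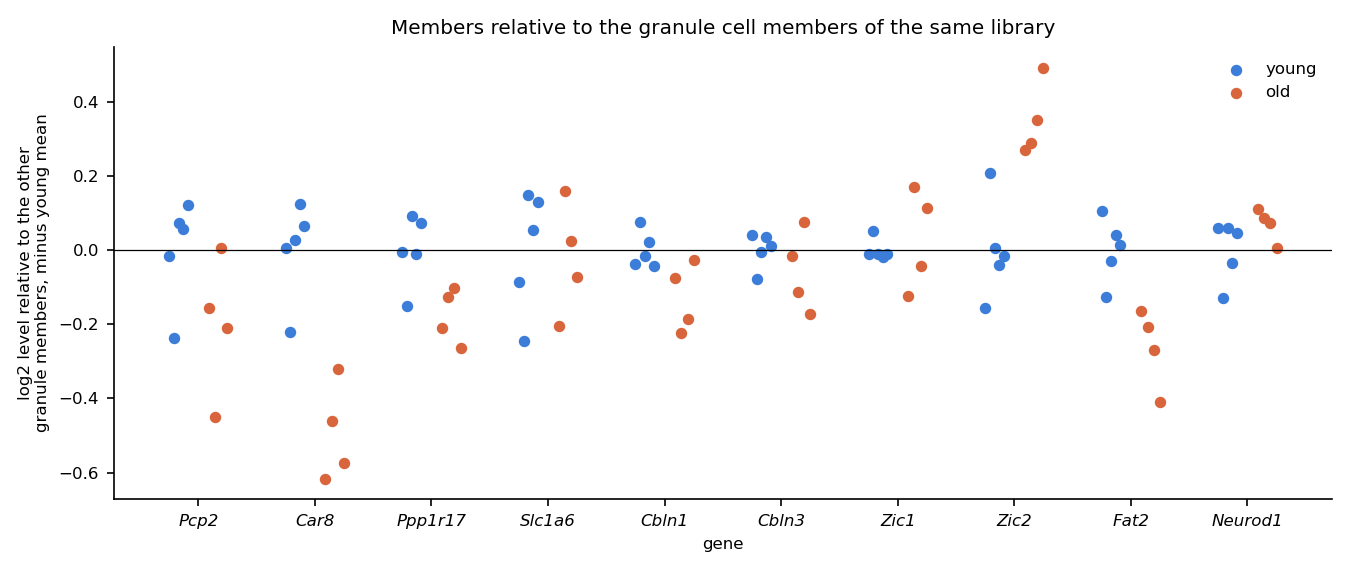
Log2 CPM of each gene minus the mean of the other granule cell genes of the same library, shown as the difference from its young mean, with 1 point per brain. All old points of Car8 and Fat2 lie below, and all old points of Zic2 above, the young points of the same gene.

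Further genes of the 2 cell types were read from lists of 21 and 14 genes. Of 21 further Purkinje cell genes 19 had a log2 fold change below 0, 7 were called lower and 0 higher, with a median of -0.23 (all genes: 4.83% called lower). With the robust prior 5 of the 21 were called, where Calb1 (adjusted p = 0.0549) and Rgs8 (0.0769) were among those that lost the call. The calcium buffer Calb1 fell from 224 to 164 CPM (log2 fold change -0.45, SE 0.095, edgeR adjusted p = 0.00882), and the regulator of G-protein signalling Rgs8 from 313 to 225 CPM (-0.48, SE 0.11, edgeR adjusted p = 0.0122). The calmodulin-binding peptide Pcp4 (-0.23), the LIM factor Lhx5 (-0.62) and the Notch ligand Dner (-0.18) were also called. Among those not called, the IP3 receptor Itpr1, the partner of Car8, had a log2 fold change of -0.24 (SE 0.079, edgeR adjusted p = 0.0671). Aldoc, which both a subset of Purkinje cells and astrocytes express, had 0.05. With the granule cell covariate 5 of the 21 were called lower (3.66% of all genes) and the median was -0.10. Several of these genes, such as Calb1 and Pcp4, are also expressed in other parts of the brain.

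Of 14 further granule cell genes 12 had a log2 fold change below 0 and 0 were called (edgeR, 2 at an unadjusted p under 0.05, 0 with the robust prior), with a median of -0.09 that lay between -0.17 (without old 1) and -0.0049 (without old 3) when 1 mouse was left out. Gabra6, the GABA receptor subunit of mature granule cells, had 92.3, 59.2, 85.3, 79.6 and 82.6 CPM in young 1 to 5 and 79.3, 40.7, 80.7 and 52.1 CPM in old 1, 3, 4 and 5 (log2 fold change -0.33, SE 0.17, edgeR adjusted p = 0.25). Its low brains were again young 2, old 3 and old 5, as for En2 and Chn2. Not all of the list shared this order. Slc17a7 was highest of the young brains in young 2 (882 CPM). Etv1 (116 CPM), Pax6 (38.0 CPM) and Reln (175 CPM) were highest of all brains in old 5. Slc17a7 (-0.02), Rbfox3 (-0.02) and Calb2 (-0.26), the most abundant of the list per length, are shared with many neurons outside the cerebellum. Of 6 genes of other cerebellar cell types, such as Bergmann glia and unipolar brush cells, 0 were called (edgeR, and 0 with the robust prior). At an unadjusted p under 0.05 stood 1, Slc6a5, which is also counted among the brainstem and hindbrain markers. Eomes is also counted among the olfactory bulb markers. The median of the 6 genes was -0.11, which reached -0.21 without old 1 and turned to 0.0091 without old 3.

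**Figure D5:**
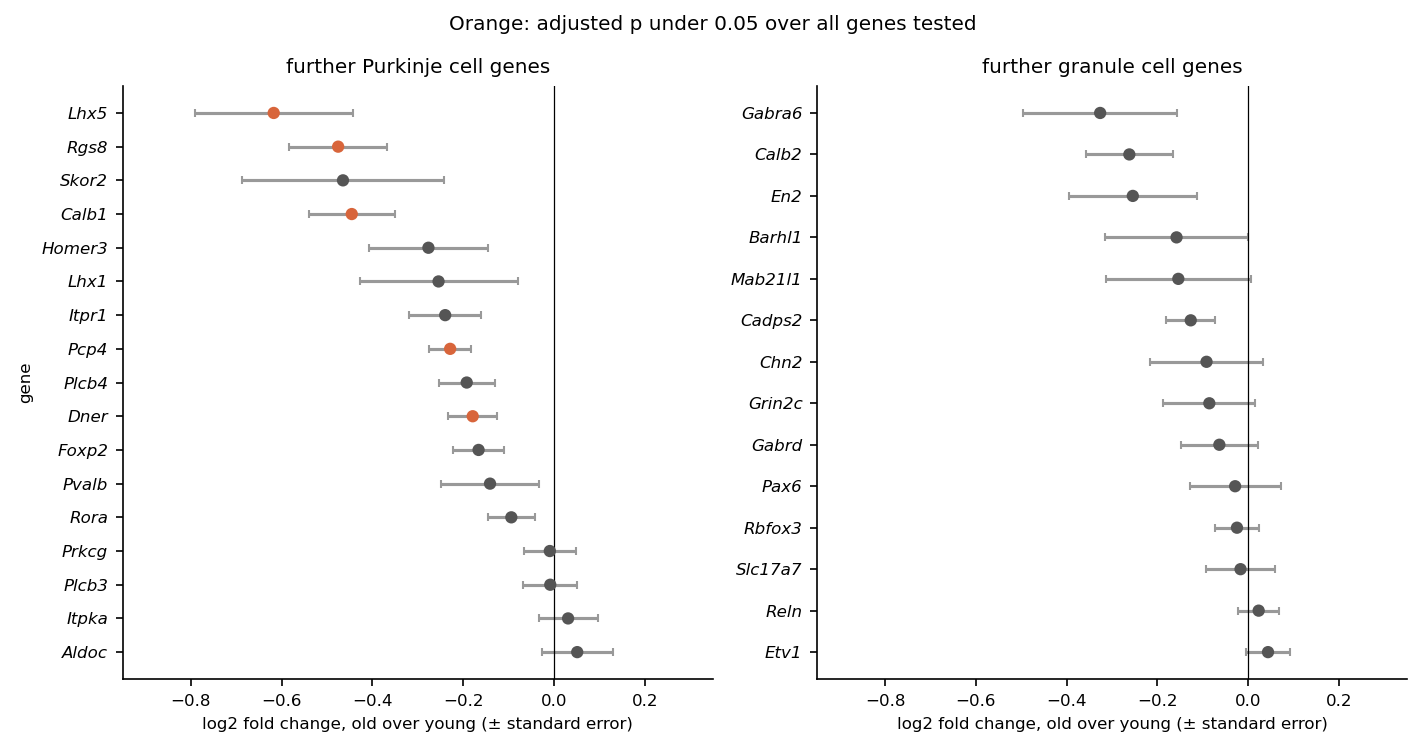
Log2 fold change, old over young, with its standard error for 17 of the 21 further Purkinje cell genes and the 14 further granule cell genes, where orange marks an adjusted p under 0.05. The 5 orange genes are all on the Purkinje side and all below 0.

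The genes listed as family relatives of the members were also read. Of these 17, 5 were called lower (4.83% of all genes) and 0 higher, with 11 below 0 and a median of -0.13. Those called were Cbln2 (-0.25), Zic4 (-0.33), Fat3 (-0.27), the carbonic anhydrase relative Car10 (-0.21) and Pcp4, which is also counted among the further Purkinje cell genes. Pcp4 and the listed Pcp4l1 share a name with Pcp2 but not its protein family. The counts and the median are therefore not of relatives alone. Of the 5 called, Fat3 lost the call with the robust prior. Zic4 shares 60 exon bases with Zic1 on the opposite strand, and its CPM was 14.6 to 19.2 in young and 12.2 to 15.6 in old brains. Uniquely mapped reads alone were counted, so stretches identical between family members can be under-counted in each.

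Outside the members, the genes whose centred log2 CPM followed the Purkinje cell genes most closely over the 9 libraries, among 14493 genes, included Atp2a3 (Pearson r = 0.992), Patj (0.989), E330009J07Rik (0.985) and Nsg1 (0.984). Those closest to the granule cell genes were En2 (0.988), Cep76 (0.986), Gatad1 (0.985), Gprc5c (0.983) and Chn2 (0.981). These 9 share the libraries and their scaling with the members. Their log2 fold changes lay between -0.42 (Atp2a3, SE 0.14, edgeR adjusted p = 0.0686) and 0.08 (Patj), and none had an adjusted p under 0.05.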

How the data were processed

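RNA-seq of whole brain was analysed for 5 young and 4 old male mice. Per the methods of the study, the authors trimmed reads, aligned them to GRCm38 with STAR and counted uniquely mapped reads on exons with featureCounts. Strand-specific counting is stated for stranded libraries, without saying whether these were. Counts were deposited as whole numbers. The authors also deposited normalized counts (a signal, counts divided by 1 size factor per library, 17994 genes) and TPM values, whose gene lengths are not named in the sources used here. Every deposited table has 1 column of per-sample values that was not analysed here. Symbols came from GENCODE M21 (48970 of 49315 IDs).

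Genes were kept with filterByExpr (minimum count 10, minimum total 15) scaled by TMM and compared by edgeR's quasi-likelihood test, with calls at a Benjamini-Hochberg adjusted p under 0.05 (edgeR 4.0.16, DESeq2 1.42.0 and limma 3.58.1 in R 4.3.3). Log2 CPM used a prior count of 2. The test was checked on simulated counts. Libraries of one age differed by more than sampling noise (lowest chi-square per degree of freedom 4.04) and were taken as separate mice. Total counts were 14229259 to 21150439. The biological coefficient of variation was 6.71% as a common value over all genes tested, not for the members.

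The members and lists were chosen with earlier results of these data known. Of each further list the called genes and otherwise up to 3 of the most abundant per length are named, except some that are not reported here, and other names (Gabra6, Aldoc, Itpr1, Zic4) and the ratios within libraries were picked with their values in view. The quasi-likelihood fit was run both with edgeR's default prior, as the design had it, and with the robust prior. For part of the work the robust fit stood as the reported one, after the members' values under the default were known, and the default was then restored because the design names no robust option. The robust fit, which calls 0 members, is given as an alternative. Other alternatives were DESeq2 size factors, upper quartile scaling, the DESeq2 Wald test, other filters, limma on log2(TPM + 1), log2(TPM + 0.1) and log2 of the normalized counts, a replicate block, marker covariates and each mouse left out.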

Additional observations from a re-analysis of the deposited data

Results flagged for a closer look

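Among 78 sets of 4 or 5 libraries tested for a library far from the others, 5 were flagged, and chance would flag about 3.9. The value given is the gap to the nearest library divided by the range of the group. Of these 3 concern young 2. Its Car8 level was 7.34 log2 CPM against 7.82 to 7.94 in the other young brains (0.804), its olfactory bulb markers averaged 3.11 log2 CPM against 0.88 to 1.29 (0.817), and Zic1 relative to the other granule cell members was 1.06 against 0.988 to 0.998 on the log2 scale (0.861). The other 2 concern young 4, whose microglia markers averaged 4.72 log2 CPM against 4.32 to 4.37 (0.878) and whose astrocyte markers averaged 8.40 log2 CPM against 8.13 to 8.19 (0.773). Their part in the age differences of the cerebellar genes was not tested, apart from the fits without young 2 and without young 4.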

How the results depend on the processing

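The number of members called, 1 in the reported fit, was 0 with the robust prior or the brainstem and hindbrain covariate, 2 with the further granule cell genes as a covariate, 6 with every gene that had a count, 5 with limma on log2(TPM + 1) or log2(TPM + 0.1), and 1 to 3 with a mouse left out. With every gene kept the 6 were Pcp2, Car8, Ppp1r17, Cbln1, Zic1 and Fat2 (6.72% of all genes), and on the TPM scale the 5 were Pcp2, Car8, Ppp1r17, Cbln1 and Fat2 (3.21% and 3.24% of all genes), where the median of all genes shifted by -0.14. Genes called over all genes numbered 2039 in the reported fit, 594 and 600 on the TPM scales, 1004 with the hindbrain covariate, 495 with a fold threshold of 0.58 added, and 1454 to 1942 with a mouse left out. The sign of Zic2 turned to -0.14 and -0.15 on the TPM scales, to -0.026 without old 1 and to -0.030 without old 4 (range with a mouse left out -0.030 to 0.20), and that of Neurod1 to 0.081 with the granule cell and 0.012 with the olfactory bulb covariate. The medians of the members moved by less than 1 SD between libraries in every setting. That SD was 0.33 for the Purkinje and 0.28 for the granule cell genes, close in size to the medians (-0.41 and -0.25). A median can thus come near 0 within it, as with the granule cell covariate (-0.12 and -0.02). Among the fits with a mouse left out the medians were nearest 0 without old 3 (Purkinje cell genes -0.55 to -0.26, granule cell genes -0.36 to -0.13). On the TPM scales the medians of the further Purkinje cell genes (-0.39 and -0.40) and the further granule cell genes (-0.27 and -0.28) moved by more than 1 SD. So did that of the genes listed as family relatives (-0.27 and -0.28). The replicate block called 2 members, Car8 (-0.87) and Fat2 (-0.56, edgeR adjusted p = 0.0189), and 1687 genes. No old mouse is numbered 2, so young 2 stood alone in its block and added nothing to the age difference in that fit. Same-numbered mice did not deviate together over all genes (correlations 0.17, -0.12, 0.09 and -0.02), which does not settle whether the numbers pair samples. The robust prior, the olfactory bulb and the hindbrain covariates were chosen after the data were seen. The cause of these changes was not tested. At 231 to 4790 counts per library, the spread between mice and not counting error limits these values.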
